A study of Mus musculus with 24 samples.

Results

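The genes of the platelet-derived growth factor (PDGF) family were examined in the left ventricle of mice with angiotensin II (ANG II)-induced hypertensive left ventricular hypertrophy. Members were the rows of the expression table whose symbols were Pdgfa, Pdgfb, Pdgfc, Pdgfd, Pdgfra, Pdgfrb and Pdgfrl. All 7 were found among the 14912 genes of the table. The hypertensive-LVH group held 12 male wild-type C57BL/6J mice that received ANG II for 7 days, at a rate of 1500 ng/kg/min. The control group held 12 male wild-type C57BL/6J mice given saline over the same time. Mice of both groups carried a subcutaneous osmotic mini-pump, and their hearts were flushed with saline before the left ventricle was taken. Age is not given in the sources used here, and further mice of the study were not analysed here. RNA came from ventricular tissue with all its cell types, so that fewer cells of a type and less RNA per cell cannot be told apart.

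PDGFs are secreted dimers that act on receptor tyrosine kinases. PDGF-A and PDGF-B are cut to their active form inside the producing cell, whereas PDGF-C and PDGF-D leave it in a latent form and are activated by proteases outside. The alpha receptor (Pdgfra) binds PDGF-A, PDGF-B and PDGF-C, and the beta receptor (Pdgfrb) binds PDGF-B and PDGF-D. In the heart, the alpha receptor is a usual marker of fibroblasts, the beta receptor is carried by pericytes and smooth muscle cells (mural cells), and PDGF-B from endothelium recruits pericytes to vessels. Pdgfrl encodes a PDGF receptor-like protein that resembles the extracellular part of the receptors and has no kinase domain.

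The values were deposited as FPKM, a fragment count scaled to transcript length and library size, but 2741 of them (0.766%) were below 0. Exact ties between samples and shared step sizes divided the 24 samples into 4 sets, numbered 1 to 3, 4 to 6, 7 to 9 and 10 to 12 in both groups, within which values had been shifted and rescaled gene by gene. The members' values fitted a rescaling that set a group difference aside, so it used the group labels. For Pdgfb that difference was 2.34 FPKM, where the mean difference before the adjustment was -1.24. Tests on deposited values are not free of this step. The labels do not say what these sets are. The read depth of the samples is unknown, and the deposited values of a sample summed to 460715 to 515185 in the ANG II samples and to 482319 to 567727 in the controls. Samples 4 to 6 stood apart: of 14004 genes tested without them, 8.4% were called higher with ANG II, against 20.9% of 14026 with them. The labelled tissue was checked by its cardiomyocyte genes (Myh6, Tnnt2, Tnni3 and others), whose 8 values summed to 38050 to 55653 in ANG II samples and 51409 to 68153 in controls.

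In the main comparison, 2 of the 7 passed the test with higher values under ANG II at an adjusted p below 0.05 (limma on log2(FPKM + 1), Benjamini-Hochberg over all genes tested). They were Pdgfd and Pdgfrl. Over all 14026 genes tested, 20.9% were called higher by the same rule, so 2 of 7 is close to the background. None of the 7 was lower, where 12.6% of all genes were. At an unadjusted p below 0.05 none was lower either. Pdgfrl alone was a differentially expressed gene (DEG) at an adjusted p below 0.05 and a log2 fold change beyond 0.5 (the study set a log fold change of 0.5 with no base given, taken here as 2), which 4.52% of all genes met in the upward direction. Without samples 4 to 6 of both groups, only Pdgfd was called higher and no member was a DEG. All 7 genes passed the filter of a mean of at least 0.1.

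**Figure D1:**
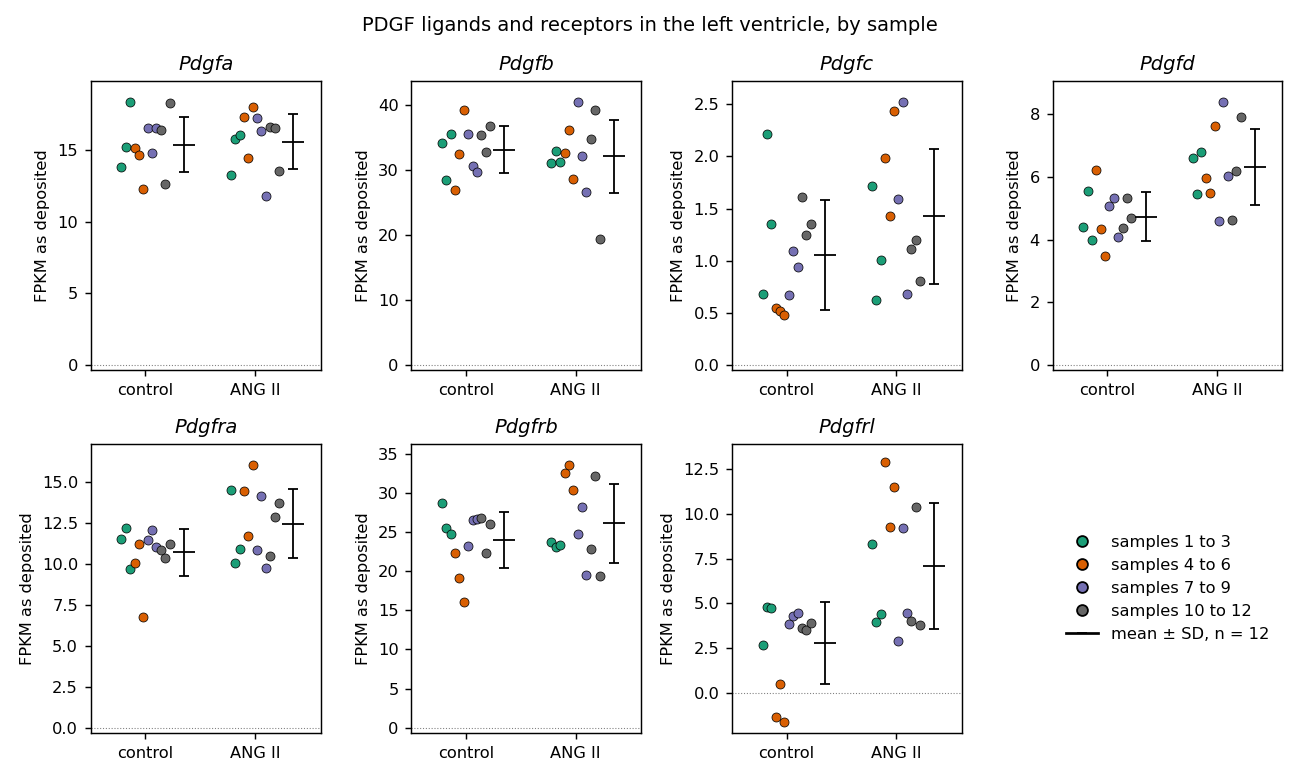
Deposited FPKM of each member (vertical axis) in the 12 control and 12 ANG II samples, with colours for the 4 sets of samples and bars for mean ± SD. All 12 ANG II values of Pdgfd lie above the control median of 4.55. For Pdgfrl, control samples 4 to 6 lie far below the other controls, and ANG II samples 4 to 6 have the highest ANG II mean. The level of each set was shifted by the adjustment.

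The RefSeq promoters (250 bases before to 50 after the start site, GRCm38.p6) are printed for Pdgfd, the member whose change was called under every alternative, and for Pdgfra, the receptor gene that varied most closely with it among samples. The first lies on the plus strand at chr9:6168236-6168535 and the second on the plus strand at chr5:75152001-75152300. Capitals mark a match to TATAAA.
Pdgfd: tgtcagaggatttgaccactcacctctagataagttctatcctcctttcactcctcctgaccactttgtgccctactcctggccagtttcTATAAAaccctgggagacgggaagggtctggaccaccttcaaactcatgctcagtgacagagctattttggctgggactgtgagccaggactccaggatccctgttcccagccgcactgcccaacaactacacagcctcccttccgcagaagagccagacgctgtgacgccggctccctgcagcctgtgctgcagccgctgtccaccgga
Pdgfra: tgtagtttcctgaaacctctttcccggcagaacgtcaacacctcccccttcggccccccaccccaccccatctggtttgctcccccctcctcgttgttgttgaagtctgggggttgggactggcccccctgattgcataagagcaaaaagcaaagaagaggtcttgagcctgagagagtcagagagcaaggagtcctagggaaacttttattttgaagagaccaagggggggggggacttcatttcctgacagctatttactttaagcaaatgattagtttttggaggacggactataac
The Pdgfd promoter held 1 TATAAA, at positions 91 to 96 of the window, which ends 155 bases before the start site. This motif was searched on both strands and was held by 13.6% of 32851 promoters of the same length. Both promoters lacked GGGCGG (the GC box, in 35.7% of promoters), TGANTCA (the AP-1 site, in 7.81%) and the CArG box (in 1.63%). GC content was 56.7% for Pdgfd and 51% for Pdgfra, against a median of 52.7% over all promoters. Entries were found for 4 of the 7 members. The Pdgfc promoter held a CArG box match, and the 2 entries of Pdgfa held GC box matches.

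Among the ligands, Pdgfd was the only gene that rose. Its values ran from 3.48 to 6.22 FPKM in controls, with a median of 4.55, and from 4.60 to 8.40 FPKM in ANG II samples, with a median of 6.11. In the deposited values every ANG II sample lay above the control median, and 5 of 12 lay above all controls, so that the groups overlapped in part. The group means were 6.31 ± 1.22 FPKM (SD, n = 12) with ANG II and 4.74 ± 0.780 FPKM (SD, n = 12) in controls. The fold was 1.27 on the log2(FPKM + 1) scale (log2 fold change 0.34 ± 0.09 SE, 95% interval 0.16 to 0.52, limma adjusted p = 0.00438). The increase was below the log2 fold change of 0.5 taken for a DEG. A two-sided permutation test over the 24 samples gave p = 0.00096.

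The rise of Pdgfd was of similar size in every set of samples. The ANG II mean exceeded the control mean by 1.64 FPKM in samples 1 to 3, by 1.68 in samples 4 to 6, by 1.52 in samples 7 to 9 and by 1.45 in samples 10 to 12. An exact two-sided permutation test with labels exchanged within sets gave p = 0.00243. Because the sets had been rescaled, the differences that stood before this adjustment were recovered from the 0.01 FPKM steps of the original values. These were 1.63, 1.68, 1.57 and 1.48 FPKM, and their mean of 1.59 FPKM gave an exact p of 0.00114. The within-set differences of Pdgfd were thus little altered by the adjustment. The original level of each set was not recovered, and counts of samples above the control median or above all controls depend on it. Without samples 4 to 6 the log2 fold change of Pdgfd was 0.33 (limma adjusted p = 0.0220).

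Pdgfa, the first of the classical ligands, showed no difference past the test. It ran from 12.2 to 18.3 FPKM in controls (median 15.2) and from 11.8 to 18.0 in ANG II samples (median 16.2). The groups overlapped almost fully. The means were 15.6 ± 1.90 FPKM with ANG II and 15.4 ± 1.94 FPKM in controls (SD, n = 12 each), and the log2 fold change was 0.02 ± 0.07 SE (95% interval -0.13 to 0.16, limma adjusted p = 0.863). Its sign turned under both median-ratio scaling and quantile normalization, to -0.03 and -0.04. The deposited differences of Pdgfa by set were -0.79, 2.59, -0.81 and -0.20 FPKM in order of sample number.

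Pdgfb, the endothelial ligand for pericytes, had the highest deposited values of the 7 and also missed the test. Its values were 26.9 to 39.2 FPKM in controls (median 33.5) and 19.3 to 40.4 in ANG II samples (median 32.3). ANG II sample 12 was the lowest of all 24. The means were 32.1 ± 5.63 FPKM with ANG II and 33.1 ± 3.67 in controls (SD, n = 12 each), with a log2 fold change of -0.06 ± 0.09 SE (95% interval -0.24 to 0.12, limma adjusted p = 0.624). Without ANG II sample 12 the log2 fold change was 0.00340.

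Pdgfc, which like PDGF-D is activated outside the cell, had the lowest deposited mean of the 7. It ran from 0.483 to 2.22 FPKM in controls (median 1.02) and from 0.627 to 2.52 in ANG II samples (median 1.31). The groups overlapped over most of this range. The log2 fold change was 0.23 ± 0.14 SE (95% interval -0.06 to 0.52, limma adjusted p = 0.206). The sets did not share a direction, with log2 differences of -0.17, 0.95, 0.39 and -0.24 in order of sample number, and without samples 4 to 6 the log2 fold change was -0.00753.

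The alpha receptor gene Pdgfra was higher on average with ANG II but missed the adjusted threshold. Its values were 6.76 to 12.2 FPKM in controls (median 11.1) and 9.73 to 16.1 in ANG II samples (median 12.3). Of the 12 ANG II samples, 6 lay above all controls and 5 lay at or below the control median. The means were 12.5 ± 2.10 FPKM with ANG II and 10.7 ± 1.44 in controls (SD, n = 12 each). The fold was 1.15 (log2 fold change 0.20 ± 0.08 SE, 95% interval 0.02 to 0.37, limma p = 0.0273, adjusted p = 0.0720). The exact permutation test within sets gave p = 0.0432. Leaving out ANG II sample 2 or 9 took the adjusted p to 0.0473 or 0.0382 (limma).

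Most of the Pdgfra difference lay in samples 4 to 6. The deposited differences were 0.71, 4.73, 0.05 and 1.56 FPKM in the 4 sets in order of sample number. Before the adjustment they were 0.087, 4.70, 1.35 and 2.25 FPKM, with a mean of 2.10 and an exact p of 0.00876 within sets. The differences in FPKM were positive in every set, but on the log2(FPKM + 1) scale of the test that of samples 7 to 9 was -0.00865 as deposited. Of these differences, that of samples 7 to 9 was the most altered by the adjustment. Without samples 4 to 6 the log2 fold change was 0.08 (limma adjusted p = 0.491).

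The beta receptor gene Pdgfrb showed no difference past the test over all samples. It ran from 16.1 to 28.7 FPKM in controls (median 25.1) and from 19.3 to 33.6 in ANG II samples (median 24.2). The median was thus lower with ANG II, while the mean was higher, at 26.1 ± 5.05 against 23.98 ± 3.62 FPKM (SD, n = 12 each). The log2 fold change was 0.11 ± 0.10 SE (95% interval -0.09 to 0.31, limma adjusted p = 0.390). In samples 4 to 6 the ANG II mean exceeded the control mean by 13.0 FPKM without overlap of the groups. In samples 1 to 3 the groups did not overlap either, in the opposite direction, with a difference of -2.92 FPKM. In samples 7 to 9 and 10 to 12 the deposited differences were -1.35 and -0.26 FPKM. Before the adjustment the 4 differences were -4.20, 15.6, 0.213 and -0.773 FPKM, so that the adjustment turned samples 7 to 9 from above to below 0. The mean of the 4 differences before the adjustment was 2.71 FPKM (exact permutation p = 0.230 within sets). Without samples 4 to 6 the log2 fold change was -0.10 (limma adjusted p = 0.414).

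The receptor-like gene Pdgfrl had the largest fold change of the 7. Its values were -1.65 to 4.81 FPKM in controls (median 3.75) and 2.92 to 12.9 in ANG II samples (median 6.37). Control samples 4 and 6 were below 0, which no FPKM can be, and were set to 0 for the test. Of the 12 ANG II samples, 11 lay above the control median and 6 lay above all controls. The means were 7.10 ± 3.52 FPKM with ANG II and 2.78 ± 2.31 in controls (SD, n = 12 each). The fold was 2.15 on the log2(FPKM + 1) scale (log2 fold change 1.11 ± 0.32 SE, 95% interval 0.45 to 1.76, limma adjusted p = 0.00970). The size of this fold change depended on the constant added before the log, and it was 1.78 with 0.1 in place of 1.

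The mean of Pdgfrl was higher with ANG II in every set, by very unequal amounts. Outside samples 4 to 6 the groups overlapped in each set. There, ANG II samples 1, 8 and 11 were the highest, at 8.30, 9.20 and 10.4 FPKM. The other ANG II samples of these sets lay between 2.92 and 4.44 FPKM, within the range of their controls (2.66 to 4.81 FPKM). The deposited differences were 1.496, 12.1, 1.31 and 2.38 FPKM in order of sample number, and before the adjustment they were 0.593, 14.1, 2.23 and 2.55. The mean before the adjustment was 4.86 FPKM (exact p = 0.00543 within sets). The call rested on samples 4 to 6, without which the log2 fold change was 0.34 (limma adjusted p = 0.195).

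**Figure D2:**
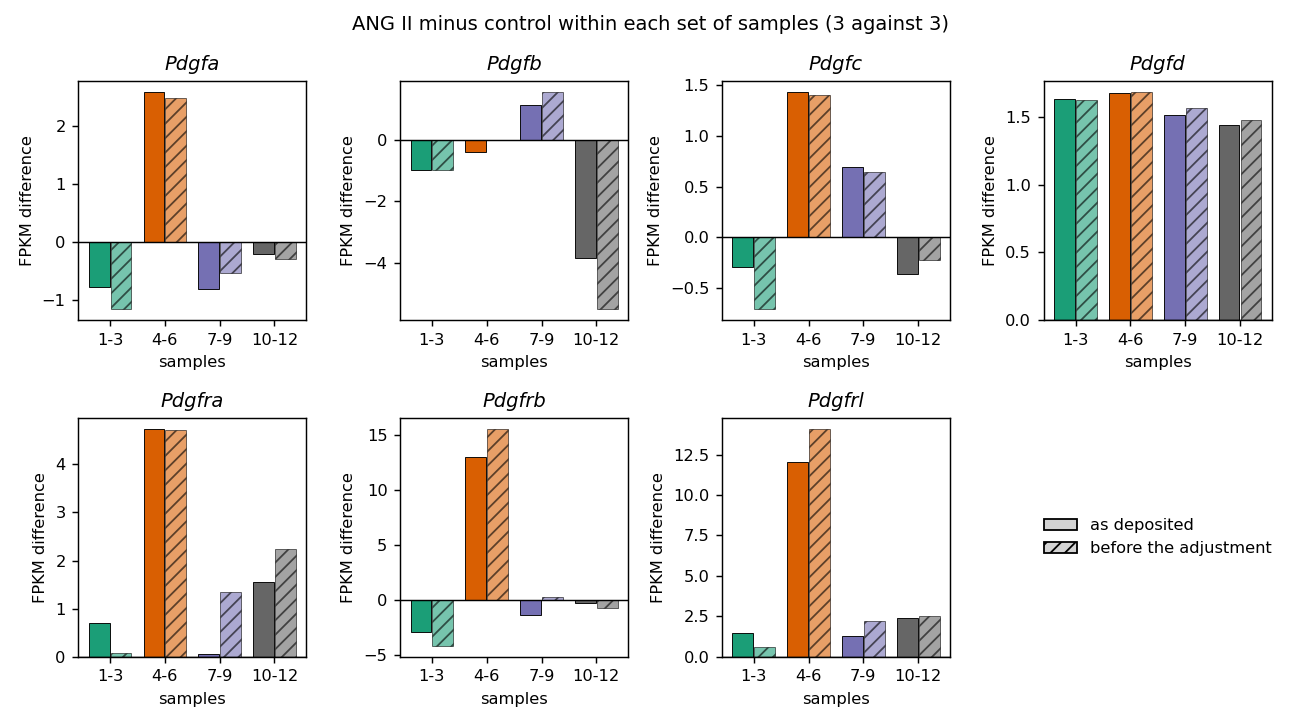
Mean FPKM with ANG II minus mean FPKM in controls (vertical axis) within each set of 3 against 3 samples, as deposited (plain bars) and before the adjustment (hatched bars). The 4 bars of Pdgfd lie between 1.45 and 1.68, whereas the bar of samples 4 to 6 exceeds all others for Pdgfa, Pdgfc, Pdgfra, Pdgfrb and Pdgfrl.

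**Figure D3:**
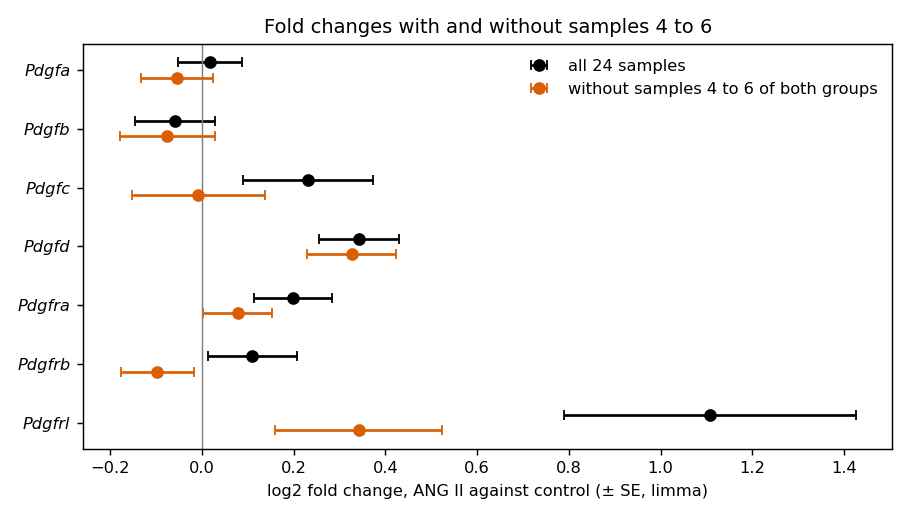
Log2 fold change of each member (horizontal axis, points, with SE from limma as bars) over all 24 samples in black and without samples 4 to 6 in orange. Pdgfd stays at 0.34 and 0.33, Pdgfrl moves from 1.11 to 0.34, and Pdgfrb moves from 0.11 to -0.10.

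FPKM is scaled to transcript length, but the deposited values were afterwards shifted and rescaled gene by gene within sets, so their order describes the deposited values and is not a comparison of abundance between genes. By deposited FPKM, Pdgfb came first among controls, followed by Pdgfrb, Pdgfa, Pdgfra, Pdgfd, Pdgfrl and Pdgfc. Pdgfb lay above Pdgfrb in all 12 controls, although the ranges of these neighbours overlapped. The ranges of Pdgfa and Pdgfra did not overlap in controls, nor did those of Pdgfra and Pdgfd. In ANG II samples Pdgfrl took the place above Pdgfd by its mean, but it exceeded Pdgfd in only 6 of 12 samples. Over all samples the mean of Pdgfb was above that of 85.1% of the genes and the mean of Pdgfc above that of 25.3%.

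The receptor genes were set beside markers of the cells known to carry them. The counts of markers called, here and below, stand beside 20.9% of all genes called higher and 12.6% called lower. The 12 fibroblast markers held 6 genes that rose, among them Col1a1 (log2 fold change 2.77, limma adjusted p = 0.0180) and Col3a1 (2.63, limma adjusted p = 0.0418), which encode fibrillar collagen chains, and 1 that fell, the actin-severing Gsn. Both collagen folds were carried by samples 4 to 6, with log2 differences by set of 0.51, 8.77, 1.24 and 0.56 for Col1a1 and of 0.37, 9.32, 0.41 and 0.40 for Col3a1. Each of these genes was below 0 in control samples 4 to 6, and these 3 values were set to 0. The median log2 fold change of the 12 markers was 0.64, against 0.05 over all genes. The mean log2 level of the fibroblast markers differed between groups by 0.11, 3.57, 0.21 and 0.13 in order of sample number. The sums over these markers were 1330 to 3659 FPKM in ANG II samples and 693 to 1807 in controls. Samples 4 to 6 were thus the set in which both Pdgfra and the fibroblast markers differed most, and the markers' part in the Pdgfra and Pdgfrl values was not tested.

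Relative to the fibroblast markers, Pdgfra stood lower with ANG II by 0.81 on the log2 scale, at -2.46 ± 0.263 against -1.65 ± 1.15 (SD, n = 12 each). The exact permutation test within sets gave p = 0.0210, and 0.0838 after Benjamini-Hochberg adjustment over the 4 such comparisons made. The difference was -3.01 in samples 4 to 6 and between -0.22 and 0.04 in the other sets, and without samples 4 to 6 it was -0.07 (exact permutation p = 0.419). The marker level includes Col1a1 and Col3a1, whose values below 0 in control samples 4 to 6 were set to 0. This lowers the control marker level there and enters the -3.01, the 0.81 and the control SD. Its share in them was not tested.

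The 12 mural cell markers held 3 genes that rose (Tagln and Mcam, and outside the naming rule Cspg4) and 3 that fell (Vtn and Kcnj8, and outside the rule Abcc9). Of all genes, 20.9% were called higher and 12.6% lower. The smooth muscle gene Tagln had a log2 fold change of 1.32 (limma adjusted p = 0.0459), and the pericyte potassium channel gene Kcnj8 one of -0.58 (limma adjusted p = 4.99e-05). The rise of Tagln was carried by samples 4 to 6, with log2 differences by set of -0.35, 4.42, 0.48 and 0.74 and 1 value below 0 set to 0. The median of the 12 was 0.08. By set, the mean log2 level of these markers differed by -0.17, 0.70, -0.15 and -0.03, and Pdgfrb by -0.16, 0.73, -0.09 and -0.04. Relative to them Pdgfrb differed between groups by 0.02 (exact permutation p = 0.633). With the median marker level of each sample in place of the mean, the value was 0.42 (exact permutation p = 2.5e-05, adjusted over the 4 comparisons 1e-04). That median follows whichever markers have a middle level in a sample. It is not their median change, which was 0.08 beside 0.11 for Pdgfrb.

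The 12 endothelial markers held 3 genes that rose and 1 that fell, with a median log2 fold change of 0.04. These counts are near the background of 20.9% higher and 12.6% lower. Those that rose were Pecam1 and Erg, and outside the naming rule Robo4, and the receptor gene Kdr fell. Relative to these markers Pdgfb was lower with ANG II by 0.13 on the log2 scale (exact permutation p = 0.146, adjusted over the 4 comparisons 0.293), and 10 of 12 ANG II samples lay below the control median. With the median marker level of each sample in place of the mean, the direction turned, to 0.071 (exact permutation p = 0.434). Here too that median follows the markers of middle level and not their median change. Platelets also carry PDGF. Of 8 platelet genes 7 were tested and 1 rose (Gp1bb), and their sums were 14.1 to 53.6 FPKM in ANG II samples and 21.5 to 35.7 in controls. The difference between Pdgfra and Pdgfrb within a sample changed by 0.09 on the log2 scale (exact permutation p = 0.362, adjusted 0.483).

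**Figure D4:**
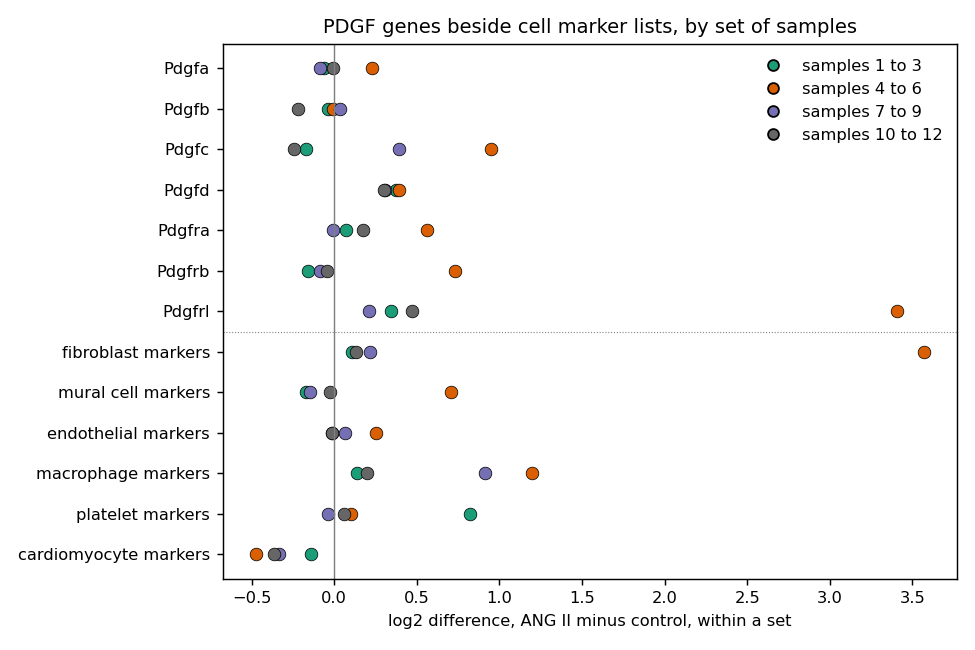
Log2 difference between ANG II and control samples (horizontal axis) within each of the 4 sets (colours), for the 7 members and for the mean log2 level of 6 marker lists. Samples 4 to 6 reach 3.40 for Pdgfrl and 3.57 for the fibroblast markers, whereas the points of Pdgfd lie between 0.30 and 0.39.

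The genes that act before and after the receptors were taken from lists of the pathway, whose counts stand beside 20.9% of all genes called higher and 12.6% called lower. Of 12 genes of PDGF maturation and release, 5 rose and 1 fell, with a median log2 fold change of 0.25. Sparc, which binds PDGF-B, rose by 1.10 on the log2 scale (limma adjusted p = 1.60e-04). Named outside the rule, genes that rose also included Furin, the protease that cuts PDGF-A and PDGF-B precursors, Plat, the tissue plasminogen activator that cuts PDGF-C, and Plaur, the urokinase receptor. The convertase gene Pcsk6 fell by 0.24 on the log2 scale (limma adjusted p = 0.0111).

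Of 35 adaptors and kinases downstream of the receptors, 7 rose and 5 fell, with a median of 0.10, and these shares are near the background of 20.9% and 12.6%. Ptpn11, the gene of the phosphatase SHP2, was among those that rose (log2 fold change 0.34). Those that fell most were Stat5a (-0.55) and the kinase gene Akt2 (-0.34), and outside the naming rule Stat5b and Gab1 fell as well. Of 17 genes that attenuate the receptors, 5 rose and 0 fell in limma, with 1 lower at an unadjusted p below 0.05. Ptpn2 (0.41) and Ptprj (0.36), both receptor-directed tyrosine phosphatases, rose most, and outside the rule Spry1, Ptpn12 and Acp1 rose too. The median of this list was 0.13.

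Of 16 growth factor response genes, 4 rose and 0 fell in limma, with 0 lower at an unadjusted p below 0.05. Myc (0.64) and Ier3 (0.59) were the largest, and outside the rule Sphk1 and Egr2 rose. Myc was higher only in samples 7 to 12, with log2 differences by set of -0.09, -0.03, 1.42 and 1.26. The median of the 16 genes was 0.07. Of 7 genes of the related class III receptors and their ligands, 2 rose, namely Csf1r (log2 fold change 0.46), the receptor of macrophages, and outside the rule Flt3. All 12 macrophage markers rose, with a median of 0.63, and 5 of 8 cardiomyocyte markers fell, with a median of -0.31 (Tnni3 and Mb, and outside the rule Myl2, Pln and Actc1). The lists were chosen with earlier results of these data known, and their counts describe them only.

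Among samples of the same group and set, members varied together to a limited degree. Of 21 pairs of members, the closest were Pdgfd and Pdgfra, with Pearson's r = 0.697 (permutation p = 0.00815, adjusted over the 21 pairs 0.137) and Spearman's rho = 0.710 (permutation p = 0.00421, adjusted 0.0884) over 24 samples. With the 2 samples of most extreme Pdgfd left out, r was 0.648. Pdgfb and Pdgfd varied in opposite directions, with r = -0.668 (permutation p = 0.0209, adjusted 0.137) and rho = -0.646 (permutation p = 0.0128, adjusted 0.108), and r was -0.718 without the 2 farthest samples. No pair passed the adjusted threshold.

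Of 11451 genes with a mean of at least 1 FPKM, the 3 whose pattern was most like each member were named by Pearson's r over the 24 samples after the mean of each group in each set was removed. For Pdgfd they were Rap2c (r = 0.926, rho = 0.877), Btbd1 (0.921, 0.893) and Cacybp (0.916, 0.917). For Pdgfra they were Fam102b (r = 0.924, rho = 0.903), Man2a1 (0.916, 0.907) and Atl3 (0.907, 0.890). For Pdgfrl they were Col4a5, a basement membrane collagen chain (r = 0.905, rho = 0.879), 1500015O10Rik (0.902, 0.906) and Fbln5, an elastic fibre protein (0.899, 0.873).

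For Pdgfb they were Ndufa4l2 (r = 0.938, rho = 0.849), Rnpep (0.900, 0.790) and Sft2d1 (0.888, 0.854), and for Pdgfc Mdfi (0.906, 0.888), Prss23 (0.893, 0.861) and Rcn1 (0.863, 0.781). For Pdgfa they were Ccdc102a (r = 0.820, rho = 0.769), Rps20 (0.813, 0.854) and Tada1 (0.804, 0.748). Pdgfrb had Slc35c1 (r = 0.922, rho = 0.895), Adcyap1r1 (0.878, 0.795) and a gene whose symbol had been turned into a date. These samples share libraries and the adjustment of their set, and the correlations are given as descriptions.

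All 7 genes are protein-coding. By GENCODE on GRCm38 (the build of the deposited values is not given in the sources used here), Pdgfd lies on chromosome 9 (6168584 to 6378850, plus strand), Pdgfc on chromosome 3 (81036416 to 81214040, plus) and Pdgfb on chromosome 15 (79995874 to 80014977, minus). Pdgfa (138976014 to 138997370, minus) and Pdgfra (75152292 to 75198215, plus) share chromosome 5, and Pdgfrl lies on chromosome 8 (40926212 to 40990785, plus). The values are per gene and cover all its exons. Pdgfrb lies on chromosome 18 (61045150 to 61085061, plus).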

How the data were processed

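Left ventricular RNA of 12 ANG II and 12 control mice was selected by oligo(dT) and sequenced in pairs. The submitters' processing notes name Bowtie2, HISAT and RSEM, and versions, build and annotation are not given in the sources used here. The authors deposited 1 table of gene values called FPKM. Since it holds negative values, the deposited values were treated as a score, made by the authors from FPKM by an adjustment in sets of samples that the sources used here do not describe. Negative values were set to 0 and log2(value + 1) was tested with limma 3.58.1 (R 4.3.3, intensity trend) for genes with a mean of at least 0.1, over all 24 samples, with Benjamini-Hochberg adjustment. Sets were found from exact ties (218 to 546 genes within a set, at most 14 across). Within-set permutation tests used all 160000 relabelings, others 100000 resamples. Differences before the adjustment were solved from steps of 0.01 FPKM, with 1 solution for each member. The code was tested on simulated data. From each list, the 2 largest increases and decreases at an adjusted p below 0.05 and a mean of at least 1 were named, and a few of these genes are not reported here. Members and lists were chosen with earlier results of these data known. Samples of a group were treated as replicates by their labels. P-values on deposited values measure the spread left by the adjustment, and not the original spread between mice. Depth per sample is unknown. Alternatives covered pseudocount, filter, scaling, trend, block, sets and each sample left out. The extraction text in the labels names another cell source, and cardiomyocyte genes were high in every sample.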

Additional observations from a re-analysis of the deposited data

How the results depend on the processing

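Of 513 alternative values, 486 were scored as unchanged, and those of Pdgfd were past the threshold in each alternative. For fold changes this score meant the same direction and side of the threshold. Counts of members were scored as well. The 3 members higher without ANG II sample 2 or 9, against 2 in the main comparison, still scored as unchanged. Leaving out samples 4 to 6 of both groups, adding a replicate block or leaving out genes with a negative value (which leaves Pdgfrl untested) each gave 1 member higher and 0 DEGs. Without samples 4 to 6, the log2 fold change of Pdgfrl was 0.34 (not past the threshold), and those of Pdgfa, Pdgfc and Pdgfrb reversed to -0.053, -0.00753 and -0.10. Pdgfa reversed to -0.029 under median-ratio scaling and to -0.041 under quantile normalization. With single samples left out, log2 fold changes ranged from -0.00931 to 0.051 for Pdgfa (reversed without ANG II sample 6, control 6 or control 11), from -0.090 to 0.00340 for Pdgfb, and from 0.15 to 0.23 for Pdgfra. With single samples left out, Pdgfra relative to fibroblast markers ranged from -0.88 to -0.62 (past the adjusted threshold without control 3, 10 or 12). It was -0.07 without samples 4 to 6 (exact permutation p = 0.419). It was -1.09 without samples 10 to 12 and -1.17 with the median marker level of each sample, both past the adjusted threshold. With that median level, which is not the median change, Pdgfrb relative to mural markers was 0.42 and Pdgfb relative to endothelial markers 0.071. With a pseudocount of 0.1, Pdgfrb relative to mural markers was -0.00837. The cause of these changes was not tested.

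Same-numbered samples of the groups did not vary together (correlations from -0.557 to -0.00109 over 12 pairs, and 0 of 12 ANG II samples closest to their own number). Only group means were removed for this check, and same-numbered samples share the adjustment of their set. It therefore cannot show whether the numbers pair the mice. With the replicate block, Pdgfrl kept its log2 fold change of 1.11 at a limma adjusted p of 0.0558, and over all genes 1586 were higher and 1238 lower, against 2928 and 1769 without it. Without samples 4 to 6 these were 1177 and 1633. Quantile normalization gave 1926 higher and 2921 lower, and median-ratio scaling 2394 and 2235. DEGs numbered 634 higher and 197 lower, 1148 and 341 with a pseudocount of 0.1, and 323 and 230 without samples 4 to 6. Depth is unknown, so counting error of Pdgfc, the lowest member, cannot be given.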
